A study of Mus musculus with 9 samples.

Results

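Hyaluronan, a long unbranched sugar polymer of the extracellular matrix, was followed in mouse lung through 9 genes that make it, cut it, bind it or build the early matrix around it: Has1, Has2, Has3, Hyal1, Hyal2, Cd44, Tnfaip6, Ptx3 and Vcan. The genes were picked by name from the 27203 genes of the expression table, with earlier results of these data known, and all 9 were listed and passed the filter on low values, so all 9 were tested among 19378 genes. The question was how these genes stood in ventilator-induced lung injury (VILI), right after injurious ventilation and some hours later. Lungs were taken from male C57BL/6 mice of 6 to 8 weeks. Control mice were intubated but not ventilated, VILI 0 hours mice were killed right after 4 hours on a ventilator (tidal volume 20 ml/kg, 40 breaths per minute), and VILI 6 hours mice were left to recover for 6 hours after the same ventilation. Each group held 3 mice with 1 RNA-seq library each, made from total RNA of whole lung. All groups shared the anaesthesia with ketamine and xylazine and the intubation. The muscle relaxant pancuronium was given during ventilation, and whether control mice received it is not stated. The study reports hypoventilation in control mice and does not state when the sequenced ones were killed. No group analysed here was ventilated at a low tidal volume, so ventilation as such and high stretch cannot be told apart. The values are FPKM, fragments normalised to transcript length and to the mapped fragments of a library, summed over the transcript rows of each gene. The table holds no counts, and read depth per library was not analysed here.

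Hyaluronan is made at the plasma membrane by the synthases Has1, Has2 and Has3, which join 2 nucleotide sugars and push the growing chain out of the cell. Hyal2 at the cell surface and Hyal1 in lysosomes cut the chain into pieces, and Cd44 is its main receptor on leukocytes and many tissue cells. In inflamed tissue the secreted protein of Tnfaip6 (TSG-6) moves heavy chains from inter-alpha-inhibitor onto hyaluronan, the pentraxin of Ptx3 helps to crosslink these chains, and versican, the product of Vcan, is a large proteoglycan that binds hyaluronan through its end domain. In the lung this matrix is known for holding water and for catching leukocytes.

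At VILI 6 hours, 5 of the 9 genes were higher than in control at an unadjusted P under 0.05: Has1, Hyal2, Cd44, Ptx3 and Vcan. None was lower. Over all genes tested, 8.17% were higher at that threshold in the same comparison, and 11.7% with libraries centred on their medians. Since the 9 were picked with earlier results known, these shares are a description of the genes. At VILI 0 hours, none of the 9 passed it in either direction, against 16.2% of all genes in either direction. Between VILI 6 hours and VILI 0 hours, Has1, Hyal2, Ptx3 and Vcan were higher and none was lower, and the share of all genes that were higher was 5.06%. After adjustment over all genes by the Benjamini-Hochberg method none of the 9 had a limma adjusted p under 0.05 in any comparison. An adjusted p under 0.05 was reached by 0.284% of all genes at VILI 0 hours, by 0.702% at VILI 6 hours and by 0% between the VILI groups. The groups did not overlap for 3 of the 9 genes at VILI 0 hours vs control, Hyal1 higher (12% of all genes) and Has3 and Ptx3 lower (21.6%), for 3 at VILI 6 hours vs control, all higher (9.64% of all genes), and for 3 between the VILI groups, all higher at VILI 6 hours (6.25%). The smallest adjusted p of the 9 genes was 0.0833, for Vcan at VILI 6 hours vs control. The median log2 fold change of the 9 genes was 0.28 at VILI 0 hours, 0.87 at VILI 6 hours and 0.71 between the VILI groups, beside −0.07, −0.09 and −0.02 for all genes tested. The 2 comparisons with control share their control libraries, and both comparisons of VILI 6 hours share its libraries. P-values measure the spread between these mice only.

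**Figure D1:**
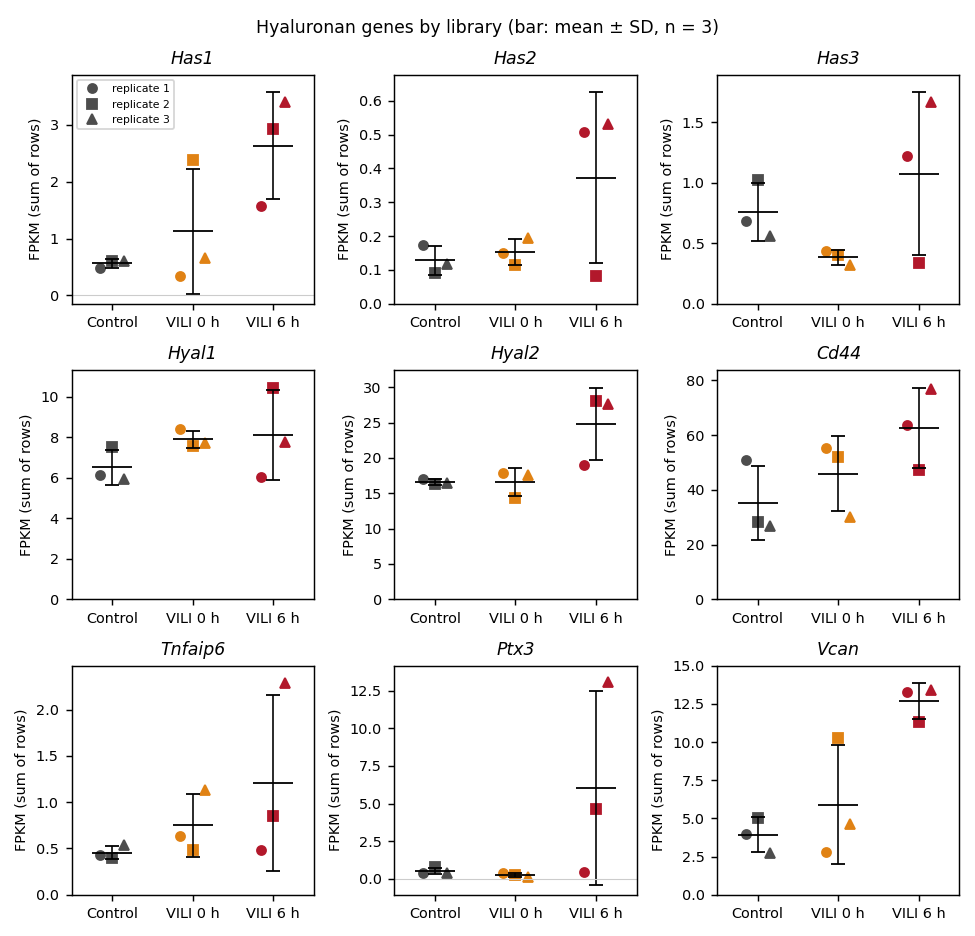
Summed FPKM of the 9 genes (y axes, 1 scale per gene) in the 9 libraries, by group (x axis). Circles, squares and triangles are replicates 1, 2 and 3 of a group, which were not treated as matched between groups, and bars are the mean ± SD of 3 libraries. Vcan, Has1 and Hyal2 stand above every control library in all 3 VILI 6 hours libraries, while Ptx3 runs from 0.415 to 13.1 FPKM within that group.

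The libraries of a group differed from each other. Leaving out VILI 6 hours replicate 1 raised the share of all genes with an unadjusted P under 0.05 at VILI 6 hours vs control from 20.4% to 38.9%. The defining genes of lung tissue were present throughout: the summed level of 8 alveolar epithelial markers was 13115 to 16059 FPKM over the 9 libraries. The summed level of 11 neutrophil markers was 53.8 to 65.8 FPKM in control, 576 to 1038 at VILI 0 hours and 495 to 2125 at VILI 6 hours, and Ly6g and Camp were at 0 in at least 1 library. In whole lung, fewer cells of a type and less RNA per cell cannot be told apart.

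The 4 upstream sequences below belong to genes that were higher at VILI 6 hours vs control. They are shown so that the promoters of genes that moved in the same comparison can be read side by side. Hyal2, also higher, is not printed, since 192 of the 262 bases of its window are annotated exon. Each runs 5′ to 3′ on the strand of the gene, from 250 bases before the RefSeq start to 12 bases after it, in build GRCm38.p6. Capitals mark the matches to the NF-kB motif.
Has1 (chr17:17855177-17855438, minus strand): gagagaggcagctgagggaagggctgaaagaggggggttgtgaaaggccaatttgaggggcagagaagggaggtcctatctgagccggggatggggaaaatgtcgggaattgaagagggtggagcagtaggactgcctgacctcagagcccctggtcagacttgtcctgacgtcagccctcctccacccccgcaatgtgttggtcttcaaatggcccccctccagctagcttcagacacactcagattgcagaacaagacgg
Vcan (chr13:89742501-89742762, minus strand): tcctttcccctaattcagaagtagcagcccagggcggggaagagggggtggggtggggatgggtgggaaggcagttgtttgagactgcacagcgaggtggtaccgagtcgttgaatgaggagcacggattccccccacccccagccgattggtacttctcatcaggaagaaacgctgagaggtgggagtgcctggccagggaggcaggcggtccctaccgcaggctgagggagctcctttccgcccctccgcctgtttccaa
Cd44 (chr2:102901654-102901915, minus strand): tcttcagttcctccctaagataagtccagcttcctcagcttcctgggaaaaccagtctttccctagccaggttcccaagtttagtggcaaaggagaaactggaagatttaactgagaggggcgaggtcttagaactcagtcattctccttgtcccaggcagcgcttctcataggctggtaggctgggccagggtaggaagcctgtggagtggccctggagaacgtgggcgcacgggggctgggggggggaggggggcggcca
Ptx3 (chr3:66219637-66219898, plus strand): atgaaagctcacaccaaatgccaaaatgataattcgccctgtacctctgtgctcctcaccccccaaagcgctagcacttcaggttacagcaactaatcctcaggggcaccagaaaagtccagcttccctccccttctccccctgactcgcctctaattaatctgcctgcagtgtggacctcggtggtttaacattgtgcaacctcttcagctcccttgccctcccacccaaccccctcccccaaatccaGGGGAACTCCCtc

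Promoters of 7 of the 9 genes were in the RefSeq table, all but Has2 and Has3. They were searched on both strands, from 250 bases before to 50 after the start. The motifs were AP-1 (TGANTCA), NF-kB (GGG, a purine, any 2 bases, 2 pyrimidines and CC) and the TATA box (TATAAA). The NF-kB motif was found in 2 of the 7, Ptx3 and Hyal2, and in 8.49% of all 32544 promoters. In Ptx3 the overlapping matches lie at the RefSeq start itself, and in Hyal2 the match begins 238 bases before the RefSeq start. These starts differ from the gene positions given below. The Hyal2 window (chr9:107568913-107569174) lies inside the annotated gene, which begins at 107567945, so its match is not upstream of that gene. The printed Ptx3 window ends at 66219898, before the annotated start at 66219910. The AP-1 motif was found in 1 of the 7, 142 bases before the start of Tnfaip6, and in 7.79% of all promoters. The TATA box letters were in none of the 7 and in 13.6% of all promoters. A match of letters is a description and not a measured site.

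Of the 3 synthases, Has1 was called at VILI 6 hours vs control, and Has2 and Has3 had positive log2 fold changes that were not called with all libraries. Whether the synthases differed from each other in their change was not tested. Has1 (ENSMUSG00000003665, GRCm38 chr17:17843323-17855205, minus strand) stood at 0.475, 0.612 and 0.607 FPKM in the control libraries, at 0.342, 2.39 and 0.666 at VILI 0 hours and at 1.58, 2.94 and 3.40 at VILI 6 hours. The VILI 6 hours libraries were all above the control libraries, and VILI 0 hours replicate 2 reached the level of VILI 6 hours. The mean rose from 0.565 ± 0.0775 (SD, n = 3) in control to 2.64 ± 0.950 (SD, n = 3) at VILI 6 hours. The limma log2 fold change, a difference of mean log2(FPKM + 0.1), was 1.98 ± 0.56 (SE; limma adjusted p = 0.117). The difference from VILI 0 hours was 1.47 (adjusted p = 0.434), with groups that overlapped. The call against VILI 0 hours was lost without VILI 0 hours replicate 1 (0.92) or replicate 3 (1.32) and without VILI 6 hours replicate 2 (1.36) or replicate 3 (1.26). Right after ventilation the log2 fold change of 0.51 vs control (adjusted p = 0.692) became −0.18 without VILI 0 hours replicate 2.

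Has2 (ENSMUSG00000022367, chr15:56665627-56694539, minus strand), the synthase needed for the heart of the embryo, was the lowest of the 9 genes in every group mean. It stood at 0.175, 0.0922 and 0.118 FPKM in control, 0.150, 0.115 and 0.194 at VILI 0 hours and 0.507, 0.0817 and 0.531 at VILI 6 hours. Replicates 1 and 3 of VILI 6 hours were above every other library, and replicate 2 was below all 8 others. On the log2 scale the change at VILI 6 hours vs control was 0.87 ± 0.49 (SE; adjusted p = 0.337). With each library left out it ran from 0.56 to 1.45, and it passed the unadjusted threshold only without VILI 6 hours replicate 2 (1.45). Against VILI 0 hours it was 0.71 (adjusted p = 0.672), with a range of 0.40 to 1.30, and passed only without that library (1.30). The values lie near the pseudocount of 0.1 FPKM, and the antisense gene Has2os covers 4596 bases of the span of Has2.

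Has3 (ENSMUSG00000031910, chr8:106870242-106884566, plus strand), a synthase known for shorter chains, stood at 0.683, 1.03 and 0.562 FPKM in control, 0.438, 0.403 and 0.317 at VILI 0 hours and 1.22, 0.339 and 1.67 at VILI 6 hours. All 3 VILI 0 hours libraries were below all control libraries, as for 21.6% of all genes, while VILI 6 hours replicate 2 was low and the other 2 were high. The log2 fold change at VILI 0 hours vs control was −0.79 ± 0.48 (SE; adjusted p = 0.453), and passed the unadjusted threshold when only those 6 libraries were fitted or VILI 6 hours replicate 2 was left out. At VILI 6 hours vs control it was 0.27 (adjusted p = 0.765), −0.13 without VILI 6 hours replicate 3, and 0.87 and past the threshold without replicate 2. Against VILI 0 hours it was 1.06 (adjusted p = 0.506), and 0.66 to 1.66 with each library left out. It passed the threshold without VILI 6 hours replicate 2 (1.66) and with a pseudocount of 1 (0.53).

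The summed level of the 3 synthases was 1.45 ± 0.244 FPKM in control, 1.67 ± 1.08 at VILI 0 hours and 4.09 ± 1.31 at VILI 6 hours (SD, n = 3 each). Every VILI 6 hours library was above every other library (exact permutation p = 0.1 against either group, the smallest that 3 against 3 allows). Has1 made up 35.4% to 47.2% of that sum in control, 36.8% to 82.2% at VILI 0 hours and 47.7% to 87.5% at VILI 6 hours. Has3, with 43.7% to 59.3% of the sum in control, held 13.9% to 47.1% and 10.1% to 37.0% after ventilation. Levels are per length and can be compared between genes, although the synthases differ in activity. The sum of Hyal1 and Hyal2 was 13.8 to 17.4 times that of the synthases in control, 7.56 to 28.3 times at VILI 0 hours and 6.31 to 11.4 times at VILI 6 hours.

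**Figure D2:**
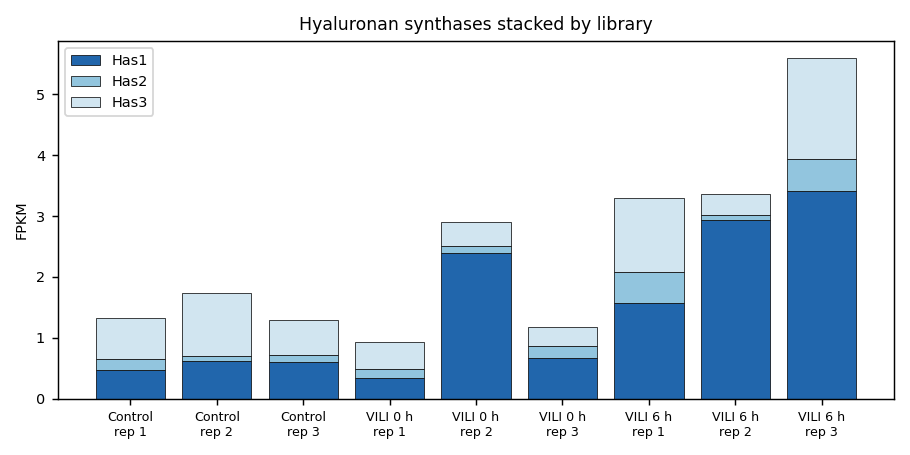
Has1, Has2 and Has3 stacked for each of the 9 libraries (x axis), in FPKM (y axis). The 3 VILI 6 hours libraries reach 3.30 to 5.60 FPKM and the control libraries 1.29 to 1.73 FPKM, and VILI 0 hours replicate 2 stands apart from its group at 2.91 FPKM, most of it Has1.

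Of the hyaluronidases, Hyal2 rose and Hyal1 was not called. Hyal2 (ENSMUSG00000010047, chr9:107567945-107572779, plus strand) stood at 17.1, 16.3 and 16.5 FPKM in control, 17.9, 14.4 and 17.6 at VILI 0 hours and 19.0, 28.0 and 27.6 at VILI 6 hours. The control libraries were within 1 FPKM of each other, and all VILI 6 hours libraries were above all others. The log2 fold change at VILI 6 hours was 0.55 ± 0.16 vs control (SE; adjusted p = 0.121) and 0.56 ± 0.16 vs VILI 0 hours (adjusted p = 0.318). It kept an unadjusted P under 0.05 in both comparisons under all 16 alternatives run. Of its 6 transcript rows, row 3 (9.92 FPKM in control, 12.4 at VILI 6 hours) and row 5 (2.64 and 7.06 FPKM) were higher in every VILI 6 hours library than in every other library. Right after ventilation Hyal2 differed from control by −0.01 (adjusted p = 0.990), and by 0.11 with libraries centred on their medians.

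Hyal1 (ENSMUSG00000010051, chr9:107576927-107581710, plus strand), which lies next to Hyal2 on the same strand, stood at 6.12, 7.52 and 5.94 FPKM in control, 8.39, 7.58 and 7.72 at VILI 0 hours and 6.04, 10.4 and 7.78 at VILI 6 hours. The VILI 0 hours libraries were all above control, by a narrow margin for replicate 2, which 12% of all genes also were, and the VILI 6 hours libraries overlapped both other groups. The log2 fold change was 0.28 ± 0.19 (SE) at VILI 0 hours (adjusted p = 0.515) and 0.28 ± 0.19 at VILI 6 hours (adjusted p = 0.421), with a 95% interval of −0.15 to 0.71 for each. The VILI 6 hours value ran from 0.08 to 0.47 with each library left out, and passed the unadjusted threshold without VILI 6 hours replicate 1 (0.47). Between the VILI groups the log2 fold change was 0.00, with an interval of −0.43 to 0.43. Hyal1 shares 2824 bases with Naa80 and 893 with Hyal3 on its own strand, and the antisense gene Gm16343 covers 4784 bases, its whole span, so the split of reads between these genes is uncertain.

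Cd44 was the most abundant of the 9 genes in every group. Cd44 (ENSMUSG00000005087, chr2:102811141-102901665, minus strand) stood at 50.9, 28.2 and 26.7 FPKM in control, 55.4, 52.1 and 30.1 at VILI 0 hours and 63.7, 47.4 and 76.8 at VILI 6 hours. Control replicate 1 was above the lowest library of either VILI group, so the groups overlapped. The mean rose from 35.3 ± 13.5 in control to 62.6 ± 14.7 at VILI 6 hours (SD, n = 3), and the limma log2 fold change was 0.86 ± 0.30 (SE; adjusted p = 0.173). The call was lost without Control replicate 2 (0.73) or replicate 3 (0.69), without VILI 6 hours replicate 3 (0.70) and for the highest row alone (1.64). The value at VILI 0 hours vs control was 0.39 (adjusted p = 0.563), and 0.22 to 0.69 with each library left out. It passed the unadjusted threshold at 0.69 without Control replicate 1 and at 0.67 without VILI 0 hours replicate 3. The VILI groups differed by 0.47 (adjusted p = 0.650).

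Cd44 is known for many splice forms, and its 8 transcript rows were split unevenly between libraries. Row 3 held 69.0% of the gene in Control replicate 1, 26.1% and 25.8% in Control replicates 2 and 3, and 57.9% to 69.6% at VILI 6 hours. Row 1 held 20.2%, 65.9% and 67.6% of the gene in the control libraries, and 19.3% to 29.5% at VILI 6 hours. In VILI 0 hours replicate 3, row 4 held 60.7% of the gene at 18.3 FPKM, and in the other 8 libraries it did not exceed 1.38 FPKM. Both shares thus varied widely within the control group, and which splice form a row stands for is not given in the table. An assembled locus on the opposite strand within Cd44 was at 0 in 7 libraries and at 0.0569 and 0.763 FPKM in the libraries VILI 0 hours replicate 2 and VILI 6 hours replicate 3.

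**Figure D3:**
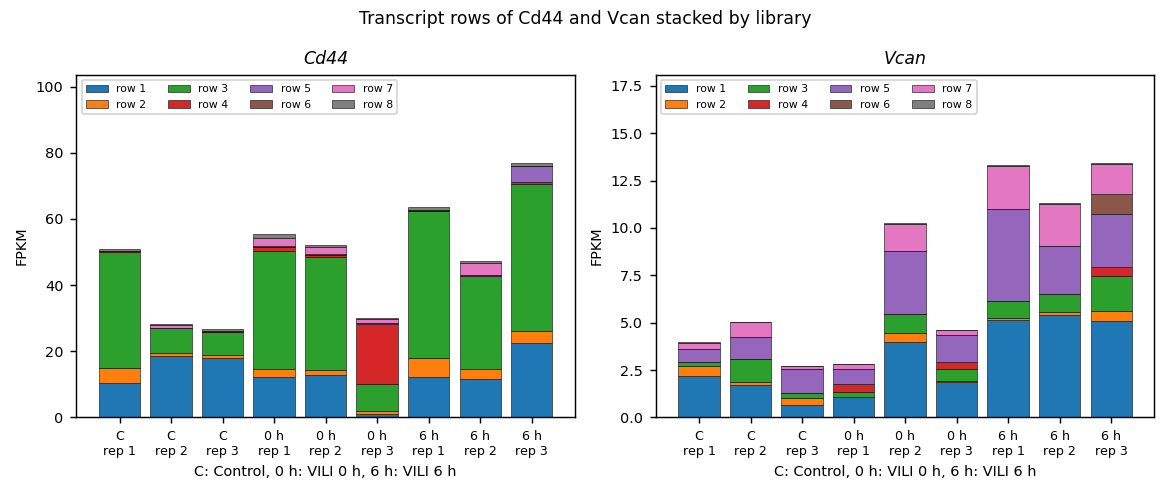
Transcript rows of Cd44 (left) and Vcan (right) stacked for each library (x axis), in FPKM (y axis), each row of the table in its own colour. In Cd44 row 3 holds 69.0% of Control replicate 1 and 26.1% and 25.8% of the other 2 control libraries, and row 4 is prominent in VILI 0 hours replicate 3 alone, while in Vcan rows 1, 5 and 7 make up most of every VILI 6 hours library.

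Vcan had the smallest P of the 9 genes at VILI 6 hours vs control, though not vs VILI 0 hours. Vcan (ENSMUSG00000021614, chr13:89655312-89742509, minus strand) stood at 3.99, 5.02 and 2.73 FPKM in control, 2.81, 10.3 and 4.61 at VILI 0 hours and 13.3, 11.3 and 13.4 at VILI 6 hours. The VILI 6 hours libraries lay close together and above all others, and VILI 0 hours replicate 2 was far above the rest of its group, as it was for Has1. The mean rose from 3.92 ± 1.15 in control to 12.7 ± 1.18 at VILI 6 hours (SD, n = 3), and the limma log2 fold change was 1.71 ± 0.40 (SE; adjusted p = 0.0833). The difference from VILI 0 hours was 1.29 ± 0.40 (SE; adjusted p = 0.348), and both calls held under all 16 alternatives run. Right after ventilation the log2 fold change vs control was 0.42 (adjusted p = 0.645), −0.08 without VILI 0 hours replicate 2, and 0.84 and past the unadjusted threshold without replicate 1. Rows 1 and 7 of its 8 rows were each higher in every VILI 6 hours library than in every other library, at 5.08 to 5.42 and 1.57 to 2.26 FPKM.

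Ptx3 (ENSMUSG00000027832, chr3:66219910-66225805, plus strand) varied most of the 9 on the log2 scale. It stood at 0.399, 0.752 and 0.376 FPKM in control, 0.356, 0.268 and 0.0803 at VILI 0 hours and 0.415, 4.66 and 13.1 at VILI 6 hours. VILI 6 hours replicate 1 was within the range of control and the other 2 were far above it, while all 3 libraries of VILI 0 hours were below all control libraries. The log2 fold change at VILI 6 hours was 2.44 ± 0.97 vs control (SE; adjusted p = 0.208) and 3.35 ± 0.97 vs VILI 0 hours (adjusted p = 0.325), where the groups did not overlap. Its value at VILI 0 hours vs control was −0.91 (adjusted p = 0.687). The call against control was lost without Control replicate 1 (2.32) or replicate 3 (2.29), without VILI 6 hours replicate 2 (2.15) or replicate 3 (1.42), and with only the 6 libraries compared (2.44). Without VILI 6 hours replicate 1 the value was 3.75. Ptx3 lies wholly inside Veph1 on the opposite strand, and whether reads were counted by strand is not settled in the sources used here. Genes on the opposite strand also overlap Has3 (Chtf8, 704 bases), Hyal2 (Gm9917, 471 bases), Cd44 (Gm23731, 107 bases) and Vcan (Gm4117, 3050 bases, and Gm16318, 601 bases).

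Tnfaip6 (ENSMUSG00000053475, chr2:52038009-52056686, plus strand) stood at 0.425, 0.401 and 0.537 FPKM in control, 0.640, 0.483 and 1.13 at VILI 0 hours and 0.485, 0.851 and 2.29 at VILI 6 hours. Replicate 3 was the highest library in both VILI groups, and VILI 6 hours replicate 1 stayed within the control range, as it did for Ptx3. The log2 fold change vs control was 0.55 ± 0.49 at VILI 0 hours (SE; adjusted p = 0.618) and 0.99 ± 0.49 at VILI 6 hours (adjusted p = 0.278). With each library left out the latter ran from 0.44 to 1.45. It was highest, and past the unadjusted threshold, without VILI 6 hours replicate 1. Between the VILI groups the log2 fold change was 0.44 (adjusted p = 0.813), and −0.12 without VILI 6 hours replicate 3.

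**Figure D4:**
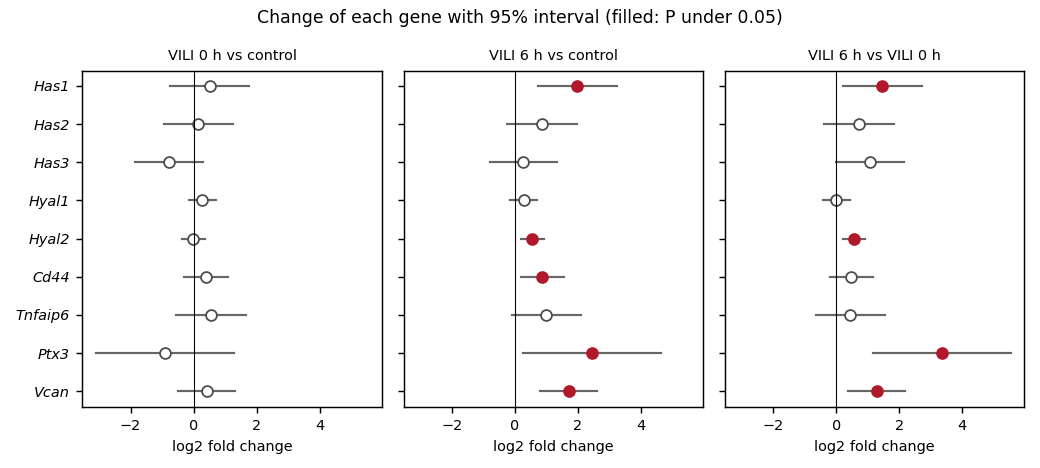
Log2 fold change of each of the 9 genes (x axis, log2(FPKM + 0.1) scale, limma) with its 95% interval in the 3 comparisons. Filled points have an unadjusted P under 0.05: none at VILI 0 hours vs control, 5 at VILI 6 hours vs control and 4 at VILI 6 hours vs VILI 0 hours, all of them higher at VILI 6 hours.

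In order of level, the control mean ran from Cd44 through Hyal2, Hyal1 and Vcan to Has3, Has1, Ptx3, Tnfaip6 and Has2. The library ranges of Has3 and Has1, of Has1 and Ptx3 and of Ptx3 and Tnfaip6 overlapped, so these neighbours could not be ranked, and the first 4 were separate from each other. In VILI 0 hours the order was Cd44, Hyal2, Hyal1, Vcan, Has1, Tnfaip6, Has3, Ptx3 and Has2, with overlap of Hyal1 with Vcan, Has1 with Tnfaip6, Has3 with Ptx3 and Ptx3 with Has2. In VILI 6 hours Vcan stood above Hyal1 without overlap, and Ptx3 came next after Hyal1 with a mean of 6.05 ± 6.45 FPKM (SD, n = 3), followed by Has1, Tnfaip6, Has3 and Has2. From Hyal1 down, every neighbouring pair of that group overlapped.

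Among the other genes of the pathway, called genes lay in both directions. Of a list of 51, 45 passed the filter, and Ambp, Hapln2, Hapln3, Hapln4, Acan and Ncan did not. At VILI 0 hours vs control 4 were higher and 3 lower at an unadjusted P under 0.05, at VILI 6 hours vs control 5 were higher and 4 lower, and at VILI 6 hours vs VILI 0 hours 7 were higher and 3 lower. The share of all genes called in either direction in these comparisons was 16.2%, 20.4% and 10%. With libraries centred on their medians the counts were 5 higher and 2 lower, 8 and 3, and 6 and 2, and leaving out VILI 6 hours replicate 1 gave 7 and 4, 11 and 7, and 11 and 5, where 23.2%, 38.9% and 22.4% of all genes were called. The median log2 fold change of the 45 genes was −0.07, −0.11 and −0.07, beside −0.07, −0.09 and −0.02 for all genes.

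Of 8 genes that supply the nucleotide sugars, 2 rose at VILI 6 hours vs control and none fell, where 8.17% of all genes were higher and 12.2% lower. Gfpt2, an enzyme of the first step towards the amino sugar of hyaluronan, stood at 3.28, 2.59 and 2.70 FPKM in control, 4.96, 3.02 and 5.03 at VILI 0 hours and 4.65, 13.4 and 12.3 at VILI 6 hours, so all VILI 6 hours libraries were above control. It rose by 1.65 ± 0.37 on the log2 scale at VILI 6 hours vs control (SE; adjusted p = 0.0745). Uap1, which makes the activated amino sugar, was at 18.9 to 19.9 FPKM in control and 22.8 to 27.9 at VILI 6 hours, a log2 fold change of 0.41 (adjusted p = 0.101). Ugdh, which makes the activated acid sugar, averaged 15.6 ± 0.311 FPKM in control and 16.8 ± 2.19 at VILI 6 hours (SD, n = 3) and was not called.

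Of 6 proteases that cleave versican and its relatives, Adamts4 and Adamts15 rose at VILI 6 hours vs control (8.17% of all genes). Adamts4 stood at 0.155, 0.192 and 0.138 FPKM in control, 0.545, 0.237 and 0.445 at VILI 0 hours and 0.649, 3.28 and 15.3 at VILI 6 hours. Both VILI groups were above control without overlap, and the VILI 6 hours libraries were widely spread with replicate 1 lowest and replicate 3 highest, as for Ptx3. The log2 fold change at VILI 6 hours was 3.70 ± 0.87 vs control (SE; adjusted p = 0.0823) and 2.79 vs VILI 0 hours (adjusted p = 0.348). Without VILI 6 hours replicate 3 these were 2.61 and 1.70, and with a pseudocount of 1 they were 2.07 and 1.79. Adamts15 was at 11.0 to 15.4 FPKM in control, 22.3 to 47.3 at VILI 0 hours and 19.4 to 48.8 at VILI 6 hours, and rose by 1.47 (adjusted p = 0.105) and 1.32 (adjusted p = 0.115) on the log2 scale. Adamts9 fell by 0.59 at VILI 0 hours (adjusted p = 0.211), a call lost with median-centred libraries (−0.48) and without Control replicate 2 or VILI 0 hours replicate 2, and was higher by 0.86 at VILI 6 hours vs VILI 0 hours (adjusted p = 0.254).

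Among 11 genes of the provisional and collagen-bound matrix, Thbs1 rose (8.17% of all genes) and Lum, Fbln2 and Postn fell (12.2%) at VILI 6 hours vs control. Lum, which encodes the collagen-binding proteoglycan lumican, stood at 6.32, 7.04 and 7.84 FPKM in control, 7.34, 6.87 and 4.65 at VILI 0 hours and 3.07, 3.64 and 3.08 at VILI 6 hours. Its log2 fold change at VILI 6 hours vs control, −1.09 ± 0.19 (SE), was the only one of the 45 that passed after adjustment (adjusted p = 0.0389). Thbs1, encoding thrombospondin 1, was at 27.3 to 33.8 FPKM in control and 49.5 to 108 at VILI 6 hours, a log2 fold change of 1.28 (adjusted p = 0.0912). Fbln2, whose product binds versican, fell by 0.61 (adjusted p = 0.146), and its call was lost without Control replicate 2 (−0.46). Postn fell by 0.45 (adjusted p = 0.0934), and the call was lost for its highest row alone (−0.30).

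Decorin was among the genes called at VILI 0 hours. Dcn, a small collagen-binding proteoglycan, was at 82.0 to 94.3 FPKM in control, 109 to 123 at VILI 0 hours and 76.6 to 81.8 at VILI 6 hours, with a log2 fold change of 0.39 at VILI 0 hours vs control (adjusted p = 0.0892) and −0.55 between VILI 6 hours and VILI 0 hours (adjusted p = 0.143). For its highest row alone these were 0.91 and −0.95. Spp1, which encodes osteopontin, a ligand of Cd44, stood at 16.4 to 27.8 FPKM in control and 34.3 to 88.7 at VILI 0 hours, a log2 fold change of 1.23 (adjusted p = 0.112), and at 32.7 to 42.2 FPKM at VILI 6 hours (0.70, adjusted p = 0.251). The latter value was not called but passed the unadjusted threshold under 6 of 16 alternatives, and it was 0.05 for the row with the highest mean FPKM alone. Fn1, encoding fibronectin, was called only between the VILI groups, at 0.52 (adjusted p = 0.396). Bcan, a lectican mostly known from brain, was at 1.34 to 1.99 FPKM in control and fell by 0.80 at VILI 0 hours (adjusted p = 0.189) and by 0.62 at VILI 6 hours (adjusted p = 0.226). The first of these calls was lost without Control replicate 2 or VILI 0 hours replicate 3, and the second with median-centred libraries, among other alternatives.

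Of 6 further genes of hyaluronan breakdown 1, Cemip, needed for cutting long chains in skin, was lower at VILI 0 hours vs control (9.35% of all genes). Its log2 fold change was −1.05 ± 0.36 (SE; adjusted p = 0.204), at 0.185 to 0.301 FPKM in control and 0.0217 to 0.126 at VILI 0 hours. These values lie near the pseudocount of 0.1 FPKM, and the call was not run under the alternatives. Of 7 receptors 1, Tlr4, was called at VILI 0 hours vs control, a share no higher than the 16.2% of all genes, with a log2 fold change of 0.34 (adjusted p = 0.285). None of the 5 inter-alpha-inhibitor chains that passed the filter was called in any comparison. The share of all genes called was 16.2% at VILI 0 hours vs control, 20.4% at VILI 6 hours vs control and 10% between the VILI groups.

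**Figure D5:**
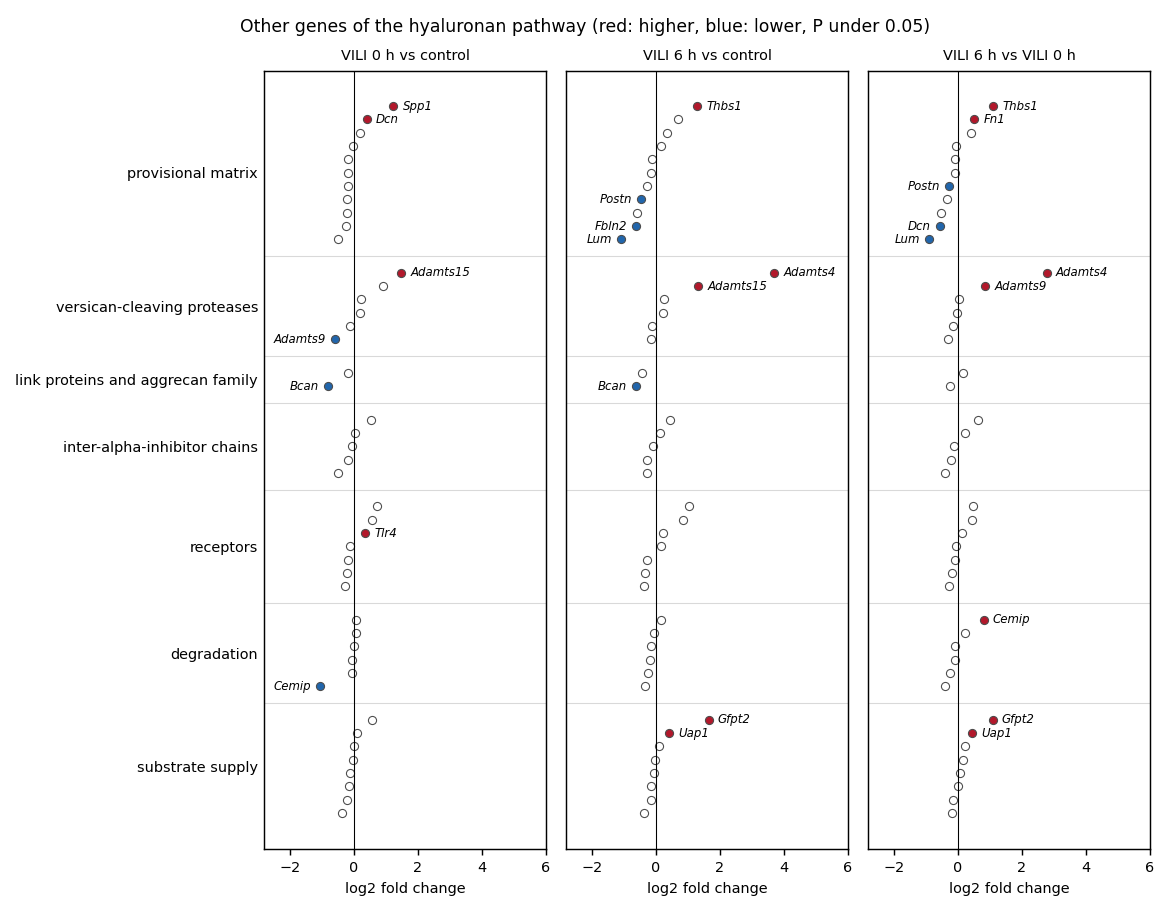
Log2 fold change (x axis) of the 45 other pathway genes that passed the filter, 1 point a gene, in 7 groups (y axis, ordered by value within a group) and 3 comparisons. Red and blue points are higher and lower at an unadjusted P under 0.05 and are named. The calls at VILI 6 hours vs control are 5 higher and 4 lower, with Adamts4 highest at 3.70 and Lum lowest at −1.09.

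Marker genes of blood and lung cells are given here beside the hyaluronan genes. Of all genes tested, 6.81% were higher and 9.35% lower at VILI 0 hours vs control, and 8.17% were higher and 12.2% lower at VILI 6 hours. Of 11 neutrophil markers, 9 were higher at VILI 0 hours and 10 at VILI 6 hours vs control, with a median log2 fold change of 3.48 and 4.06. Of 8 monocyte markers, 1 and 4 were higher, and their summed level was 116 to 121 FPKM in control, 102 to 212 at VILI 0 hours and 158 to 382 at VILI 6 hours. Among the VILI 0 hours libraries, replicate 2 was the highest for the monocyte sum (212 FPKM, beside 102 and 103), for the neutrophil sum (1038 FPKM, beside 576 and 881) and for Has1 and Vcan. At VILI 6 hours the monocyte sum was 197, 158 and 382 FPKM in replicates 1, 2 and 3. In the same order the neutrophil sum was 495, 1035 and 2125 FPKM, and the alveolar macrophage sum 664, 267 and 417 FPKM. Vcan (13.3, 11.3 and 13.4 FPKM) was lowest in replicate 2, as were the monocyte and alveolar macrophage sums. Has1 (1.58, 2.94 and 3.40 FPKM) was lowest in replicate 1 and highest in replicate 3, as was the neutrophil sum. Which cells held these transcripts was not tested. Of 10 fibroblast markers, 4 and 5 were lower and none was higher, with a sum of 719 to 850 FPKM in control, 567 to 682 at VILI 0 hours and 543 to 742 at VILI 6 hours. Of 8 mesothelial markers, Wt1 alone was higher at VILI 6 hours, and the list summed to 85.7 to 97.7 FPKM in control and 59.9 to 143 at VILI 6 hours.

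For the remaining lists, given as genes higher and lower at VILI 0 hours and then at VILI 6 hours vs control, the counts were 5 and 0, then 2 and 0 of 8 alveolar macrophage markers. They were 1 and 0 at both times of 6 smooth muscle markers, 0 and 1, then 0 and 3 of 8 endothelial markers, and 2 and 0, then 1 and 1 of 8 alveolar epithelial markers. They were 0 and 2, then 0 and 5 of 6 B cell markers. None of 6 T cell and none of 6 cardiac muscle markers was called at either time. The part of a change in cell makeup in the levels of the hyaluronan genes was not tested.

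By profile over the 9 libraries, the gene nearest to Has1 among 13967 genes of at least 1 FPKM was Ms4a6c, followed by F13a1 and Ms4a6d, at root mean square differences of 0.41, 0.42 and 0.43 on the log2 scale. Those nearest to Vcan were F13a1, Msr1 and Ms4a6c (0.31, 0.32 and 0.33). F13a1, the A subunit of coagulation factor XIII, is 1 of the 8 monocyte markers. It averaged 7.81 FPKM in control, 17.0 at VILI 0 hours and 25.7 at VILI 6 hours. At VILI 0 hours vs control 5 of the 8 monocyte markers had a log2 fold change above 0, F13a1 at 0.73 among them, over a range of −0.48 for Ms4a4c to 1.63 for Fcgr4, the 1 that was called. Those nearest to Ptx3 were the cytokine and chemokine genes Il6, Ccl2 and Cxcl1 (0.70, 0.74 and 0.89), and Il6 averaged 0.216, 0.214 and 7.07 FPKM in the same order. Nearest to Cd44 were Lcp2, Cotl1 and Hnrnpa3 (0.18, 0.25 and 0.25), and among the 3 nearest to Hyal2 were Pdlim7 and Caskin2 (0.10 and 0.11).

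For the genes that were not called, the nearest profiles were Tiparp, Dennd4a and Rnf125 for Tnfaip6 (0.22, 0.23 and 0.26), Pigr, Pstpip2 and Olfr171 for Has2 (0.26, 0.27 and 0.29), Lif, Adgre4 and Muc4 for Has3 (0.33, 0.33 and 0.34) and Azi2, Slc6a9 and Ick for Hyal1 (0.08, 0.09 and 0.11). A small difference is easier to reach for a gene that varies little: the values of Hyal1 lay at a root mean square of 0.24 around their own mean and those of Ptx3 at 1.85. These likenesses are descriptions over 9 libraries that share their groups.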

How the data were processed

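Lung RNA of 9 male C57BL/6 mice (3 control, 3 VILI 0 hours, 3 VILI 6 hours) was analysed from the deposited FPKM table, which lists 60108 transcript rows under 27203 gene IDs, without transcript IDs. The deposited FPKM values (fragments normalised to transcript length and library size) had been made by the authors, per the methods of the study and the submitters' processing notes, by alignment with TopHat2 2.0.9 and Bowtie2 2.0.6 to GRCm38, assembly with Scripture and Cufflinks, and Cuffdiff 2.1.1. The library kit named in the sample labels differs from that in the methods of the study. Read depth per library was not analysed here, so no counting interval was given. Column sums ran from 366360 to 388459 FPKM.

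FPKM were summed over the rows of each gene, and symbols and positions were taken from GENCODE M21 (23503 of 23713 Ensembl gene IDs named). The authors' comparisons were not used. Genes with a mean of at least 0.1 FPKM over the 9 libraries (19378) were fitted together on log2(FPKM + 0.1) with limma 3.58.1 in R 4.3.3 (lmFit and eBayes with trend, group as the only factor). Fold changes of genes near 0.1 FPKM are understated on this scale. A gene was called where its unadjusted P was under 0.05 (the study set P under 0.05 for Cuffdiff transcripts, with no adjustment named), and p-values were adjusted by the Benjamini-Hochberg method over all genes tested. Two-sided exact permutation tests of 3 against 3 libraries cannot go below 0.1. The limma script was tested on simulated data.

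The 9 hyaluronan genes, a list of 51 other genes of the pathway and 11 lists of cell type markers (neutrophil, monocyte, alveolar macrophage, fibroblast, mesothelial, smooth muscle, endothelial, alveolar epithelial, T cell, B cell and cardiac muscle) were chosen with earlier results of these data known. Named were the 9 genes, the 12 pathway genes with the smallest P among those called in any comparison (Cemip, Tlr4 and Fn1, which complete the counts, and Ugdh, which was not called, were named beside them after their values had been seen), and for each of the 9 genes the 3 genes with a mean of at least 1 FPKM nearest to it by the root mean square difference of centred log2 values over the 9 libraries (1 of these is not reported here). Promoters (250 bases before to 50 after the start, GRCm38.p6) came from RefSeq. The planned comparison of proteins was not made. Alternatives were a pseudocount of 1, no filter, median-centred libraries, the 6 libraries compared only, a replicate block, the row with the highest mean FPKM, no trend in eBayes, and leaving out each library in turn. Python 3.11.15 with pandas 2.3.3, numpy 2.4.6, scipy 1.17.1 and matplotlib 3.10.9 was used for all other steps.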

Additional observations from a re-analysis of the deposited data

Results flagged for a closer look

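For 4 of the 9 hyaluronan genes the change from control differed between VILI 6 hours and VILI 0 hours at an unadjusted P under 0.05 in limma, as did 10% of all genes tested in either direction. The differences on the log2 scale, VILI 6 hours minus VILI 0 hours, were 3.35 for Ptx3, 1.47 for Has1, 1.29 for Vcan and 0.56 for Hyal2. Among the other pathway genes the same test gave 2.79 for Adamts4, 1.10 for Gfpt2, 1.10 for Thbs1, 0.86 for Adamts9, 0.82 for Cemip, 0.52 for Fn1 and 0.44 for Uap1, and −0.90 for Lum, −0.55 for Dcn and −0.28 for Postn. The Postn difference kept an unadjusted P under 0.05 in 8 of 16 alternatives, that of Gfpt2 in 13 and that of Has1 in 12, while those of Cemip and Fn1 were not run under the alternatives. None of these 14 differences had an adjusted p under 0.05. Groups of 3 libraries are too small for a test of single outlying libraries.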

How the results depend on the processing

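Calls of Hyal2 and Vcan at VILI 6 hours vs either group, of Has1 at VILI 6 hours vs control and of Ptx3 at VILI 6 hours vs VILI 0 hours kept an unadjusted P under 0.05 under all 16 alternatives, while those of Cd44 and Ptx3 vs control and of Has1 vs VILI 0 hours did not. With each library left out in turn, the number of the 9 genes called ran from 0 to 1 (VILI 0 hours vs control), 3 to 7 (VILI 6 hours vs control) and 3 to 5 (VILI 6 hours vs VILI 0 hours), and that of the pathway genes from 4 to 11, 8 to 18 and 8 to 16. The lowest count of the 9 genes at VILI 6 hours vs control, 3, came without Control replicate 3 or VILI 6 hours replicate 3. There 13.2% and 14.1% of all genes were called. The highest, 7, came without VILI 6 hours replicate 1, where 38.9% of all genes were called. The highest pathway counts, 11, 18 and 16, also came without that library, where 23.2%, 38.9% and 22.4% of all genes were called in the 3 comparisons. With only the 6 libraries compared, 2 of the 9 genes (Has3 lower, Hyal1 higher) and 12 pathway genes were called at VILI 0 hours vs control, in place of 0 and 7, while the share of all genes called went from 16.2% to 26.4%. Centring libraries on their medians shifted all log2 fold changes vs control by 0.11 at VILI 0 hours and 0.13 at VILI 6 hours, and moved the share of higher genes among all calls from 42.1% to 61.2% and from 40.1% to 58.1%.

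Other called values that moved by over 1.5 times were, with a pseudocount of 1, those of Has1 (1.18 vs control, 0.85 vs VILI 0 hours), Ptx3 (1.97 vs VILI 0 hours) and Bcan (−0.47 at VILI 0 hours and −0.38 at VILI 6 hours, vs control), and, for the highest row alone, those of Hyal2 (0.31 vs control, 0.35 vs VILI 0 hours) and Uap1 (0.73 vs VILI 0 hours).

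None of the log2 fold changes that turned sign had been called. At VILI 0 hours vs control, centring gave 0.11 for Hyal2 and 0.08 for Uap1, and the highest row alone 0.06 for Postn. At VILI 6 hours vs VILI 0 hours the highest row of Hyal1 gave −0.18. With each library left out, VILI 0 hours vs control ran from −0.18 to 1.06 for Has1, −0.06 to 0.09 for Hyal2, −0.08 to 0.84 for Vcan, −0.08 to 0.03 for Uap1, −0.06 to 0.49 for Thbs1 and −0.31 to 0.01 for Lum. VILI 6 hours vs control ran from −0.13 to 0.87 for Has3. VILI 6 hours vs VILI 0 hours ran from −0.20 to 0.19 for Hyal1, −0.12 to 0.90 for Tnfaip6, −0.06 to 0.32 for Bcan and −0.51 to 0.23 for Adamts15. The cause was not tested.

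Replicate numbers are shared by the groups in the labels. The deviations of same-numbered libraries correlated at −0.22 to 0.02, and not every library correlated best with its own number. No sign of pairing by number was thus seen, though this check on groups of 3 could miss a small shared effect. With a replicate block 0, 6 and 4 of the 9 genes and 6, 10 and 8 pathway genes were called in the order above, beside 14.5%, 18% and 8.74% of all genes. The added gene was Tnfaip6 at VILI 6 hours vs control (0.99). With 3 libraries a group and no counts, the precision of low genes such as Has2 rests on the spread of the libraries alone.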
